A study of Capra hircus with 10 samples.

Results

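The genes described here are 40 genes of the cell division cycle, out of 17197 genes measured by RNA sequencing in goat mammary gland cells. They are listed by symbol for their textbook function, and the list was chosen with earlier results of these data known. Of the 40, 17 act at the entry into S phase and in DNA replication (called S members), 20 act in G2 and mitosis (called G2/M members), and 3 govern progress through G1: CCND1, CDKN1A and CDKN1B. All 40 have a row in the expression table. Tests were made on the 39 that reached 1 FPKM in at least 2 libraries. GINS2, a subunit of the GINS complex of the replicative helicase, did not reach that level and is given by its values only. FPKM are fragment counts scaled by transcript length and library size, a scale on which levels of different genes can be set side by side.

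The cells came from Lanshan dairy goats, were grown in 3D culture, and gave 10 libraries of total RNA in 5 groups of 2. Blank carries the genotype label control. Lv5NC and Lv3NC carry the labels 5NC and 3NC and are taken here as the control viruses. Lv5NC was used as the control of the overexpression and Lv3NC as that of the knockdown, which is inferred from their order in the series text and stated in no source used here. OV55666 cells were given a virus with the gene of the long noncoding RNA lncRNA55666, for its overexpression. KD553 cells were given a virus for lowering its expression. The sources used here give no promoter, target sequence, dose or time of the viruses and no age of the animals, and do not tell if a pair of libraries in a group stems from different cultures or goats. The p-values below thus reflect only how far these libraries vary, and that variation may be technical. The number of a KD553 library is that of its data column, since the labels number these samples in conflicting ways. The level of lncRNA55666 is not analysed here, so neither manipulation was checked against its label.

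FPKM summed to between 440565 and 460423 per library, and between 10922 and 11163 genes reached 1 FPKM. The number of reads is unknown. Fibroblast markers were abundant: 12 of 13 were at 1 FPKM or more in every library, the exception being POSTN, and their summed level was 22930 to 25950 FPKM. Of 17 luminal epithelial markers 14 stayed below 1 FPKM in every library, with KRT8 and EPCAM at no more than 0.02 and CDH1 at no more than 0.01. Among 8 measured basal or myoepithelial markers, 4 never reached 1 FPKM, with KRT14 at no more than 0.09, and 4 were above it in every library: ACTA2 (667.55 to 1246.8 FPKM), MYLK (207.72 to 553.2), MYH11 and CNN1, genes of contractile cells. Of 9 leukocyte markers 7 were below 1 FPKM in every library, with PTPRC at no more than 0.01, while CD14 was at 16.85 to 37.23 FPKM and CD68 at 1 to 2.33. All 8 endothelial and 5 of 6 adipocyte markers were below 1 FPKM in every library. The labels call the cells mammary gland cells and name no cell type.

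A dividing cell passes from G1 into S phase when cyclin D and cyclin E kinases inactivate the retinoblastoma proteins and release E2F transcription factors, which switch on the genes of nucleotide supply and of the replication origins. The MCM proteins form the helicase ring that is loaded on origins by CDC6 and CDT1, and PCNA is the clamp that holds DNA polymerase on its template. A later wave of genes, switched on by MYBL2 and FOXM1 with the MuvB complex, serves mitosis: cyclins A and B with CDK1, the Aurora and Polo kinases, spindle motors, the spindle checkpoint and the ubiquitin ligase that ends mitosis. Transcripts of both waves are scarce in resting fibroblasts, and the CDK inhibitors p21 (CDKN1A) and p27 (CDKN1B) hold cells in G1.

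The S members were present at moderate levels. Their means over the 10 libraries ran from 0.686 FPKM for GINS2 to 29.57 FPKM for TYMS, the thymidylate synthase, which stood at 26.32 and 20.94 FPKM in Blank, 30.76 and 27.57 in Lv5NC, 27.86 and 26.99 in OV55666, 38.21 and 36.05 in Lv3NC, and 26.13 and 34.92 in KD553. Both Lv3NC libraries were the highest, and the first KD553 library lay with Blank and OV55666 while the second lay close to Lv3NC. MCM7, a helicase subunit, came next, with 28.45 and 25.68 FPKM in Blank, 32.71 and 24.55 in Lv5NC, 27.21 and 22.9 in OV55666, 29.36 and 27.8 in Lv3NC, and 20.28 and 25.03 in KD553. For MCM7 both KD553 libraries were below both Lv3NC and both Blank libraries. Both OV55666 libraries were also below both Lv3NC libraries, and all other pairs of groups overlapped. RRM2, the small subunit of ribonucleotide reductase, was at 18.01 and 14.48 FPKM in Blank, 27.23 and 19.43 in Lv5NC, 18.94 and 18.2 in OV55666, 26.83 and 23.4 in Lv3NC, and 15.38 and 26.29 in KD553. The first Lv5NC, both Lv3NC and the second KD553 library were its high libraries.

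The clamp PCNA was at 13.01 and 11.79 FPKM in Blank, 15.79 and 13.11 in Lv5NC, 13.12 and 12.38 in OV55666, 17.43 and 15.64 in Lv3NC, and 12.1 and 15.07 in KD553. Its Lv3NC libraries lay above those of Blank, OV55666 and KD553, and 1 of them was just under the first Lv5NC library. MCM2 was at 8.25 and 7.25 FPKM in Blank, 11.35 and 8.04 in Lv5NC, 8.26 and 7.31 in OV55666, 10.91 and 10.01 in Lv3NC, and 7.64 and 10.02 in KD553. MCM6 was at 9.96 and 9.3 FPKM in Blank, 12.16 and 11.04 in Lv5NC, 11.02 and 11.05 in OV55666, 12.18 and 13.27 in Lv3NC, and 11.11 and 14.1 in KD553. MCM6 was the 1 S member that was highest in the second KD553 library, and every library of a virus group was above both Blank libraries. CDT1, the origin licensing factor, was low, with 3.02 and 2.52 FPKM in Blank, 3.64 and 3.33 in Lv5NC, 2.71 and 2.77 in OV55666, 3.12 and 2.58 in Lv3NC, and 2.48 and 3.05 in KD553. The transcription factor MYBL2 was at 8.48 and 8.17 FPKM in Blank, 12.75 and 8.78 in Lv5NC, 8.46 and 7.29 in OV55666, 12.79 and 9.03 in Lv3NC, and 6.22 and 9.47 in KD553. For both CDT1 and MYBL2 the 2 OV55666 libraries were below the 2 Lv5NC libraries.

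The other S members, by their means over the 10 libraries, were MCM3 (12.01 FPKM), MCM4 (9.33 FPKM) and MCM5 (11.03 FPKM) of the helicase, RRM1, the large reductase subunit (15.11 FPKM), the E cyclins CCNE1 (2.33 FPKM) and CCNE2 (1.9 FPKM), the origin licensing factor CDC6 (1.22 FPKM), and E2F1 (2.3 FPKM). The ratio of the highest to the lowest library had a median of 1.7 over the 17 S members and ran from 1.47 for CCNE1 to 2.1 for CDC6.

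The G2/M members were lower on the same per-length scale, between 1.37 FPKM for the kinetochore motor CENPE and 13.92 FPKM for CDC20, which activates the ubiquitin ligase of mitotic exit. CDC20 was at 11.69 and 9.74 FPKM in Blank, 18.6 and 13.06 in Lv5NC, 13.39 and 12.29 in OV55666, 18.09 and 15.47 in Lv3NC, and 10.69 and 16.15 in KD553. UBE2C, the ubiquitin-conjugating enzyme of that ligase, was at 13.28 and 11.55 FPKM in Blank, 16.3 and 13.02 in Lv5NC, 12.55 and 10.64 in OV55666, 16.54 and 14.71 in Lv3NC, and 9.58 and 12.95 in KD553. For UBE2C both OV55666 libraries were below both of Lv5NC, and both KD553 libraries were below both of Lv3NC. KIF20A, a kinesin of cytokinesis, was at 9.37 and 9.41 FPKM in Blank, 13.29 and 10.89 in Lv5NC, 8.84 and 9.87 in OV55666, 15.19 and 13.14 in Lv3NC, and 9.26 and 14.14 in KD553. Its first KD553 library sat just below the Blank values and its second between the 2 Lv3NC values.

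Cyclins A and B, which activate the mitotic kinase, were each lowest in another library. CCNA2 was at 3.91 and 3.99 FPKM in Blank, 6.88 and 4.82 in Lv5NC, 4.15 and 4.07 in OV55666, 6.27 and 4.89 in Lv3NC, and 4.56 and 5.57 in KD553. CCNB1 was at 8.17 and 8.71 FPKM in Blank, 11.78 and 10.6 in Lv5NC, 9.38 and 10.01 in OV55666, 13.4 and 10.82 in Lv3NC, and 6.9 and 11.36 in KD553. CCNB2 was at 3.96 and 3.07 FPKM in Blank, 5.97 and 4.81 in Lv5NC, 3.67 and 3.8 in OV55666, 6.8 and 5.11 in Lv3NC, and 3.46 and 5.34 in KD553. For all 3 cyclins the OV55666 libraries were below both Lv5NC libraries, and the KD553 libraries straddled the lower Lv3NC library. The checkpoint kinase BUB1B was at 3.41 and 3.02 FPKM in Blank, 5.08 and 3.99 in Lv5NC, 4.12 and 3.66 in OV55666, 5.36 and 5.1 in Lv3NC, and 3.18 and 5.1 in KD553. Its second KD553 library equalled the lower Lv3NC library, and its first lay with Blank.

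The remaining G2/M members had the following means over the 10 libraries. The kinases were CDK1 (2.78 FPKM), the partner of the mitotic cyclins, BUB1 of the spindle checkpoint (3.14 FPKM), AURKA (3.58 FPKM), AURKB (2.88 FPKM) and PLK1 (4.17 FPKM). Spindle and kinetochore genes were CENPF (1.59 FPKM), the motor KIF11 (4.44 FPKM), the spindle assembly factor TPX2 (10.75 FPKM) and BIRC5, survivin of the chromosomal passenger complex (5.18 FPKM). TOP2A, which untangles DNA before segregation, was at 6.77 FPKM, the proliferation marker MKI67 at 7.83 FPKM, and the transcription factor FOXM1 at 2.01 FPKM. The ratio of the highest to the lowest library had a median of 1.91 over the 20 G2/M members, from 1.59 for TPX2 to 2.42 for CDK1.

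**Figure D1:**
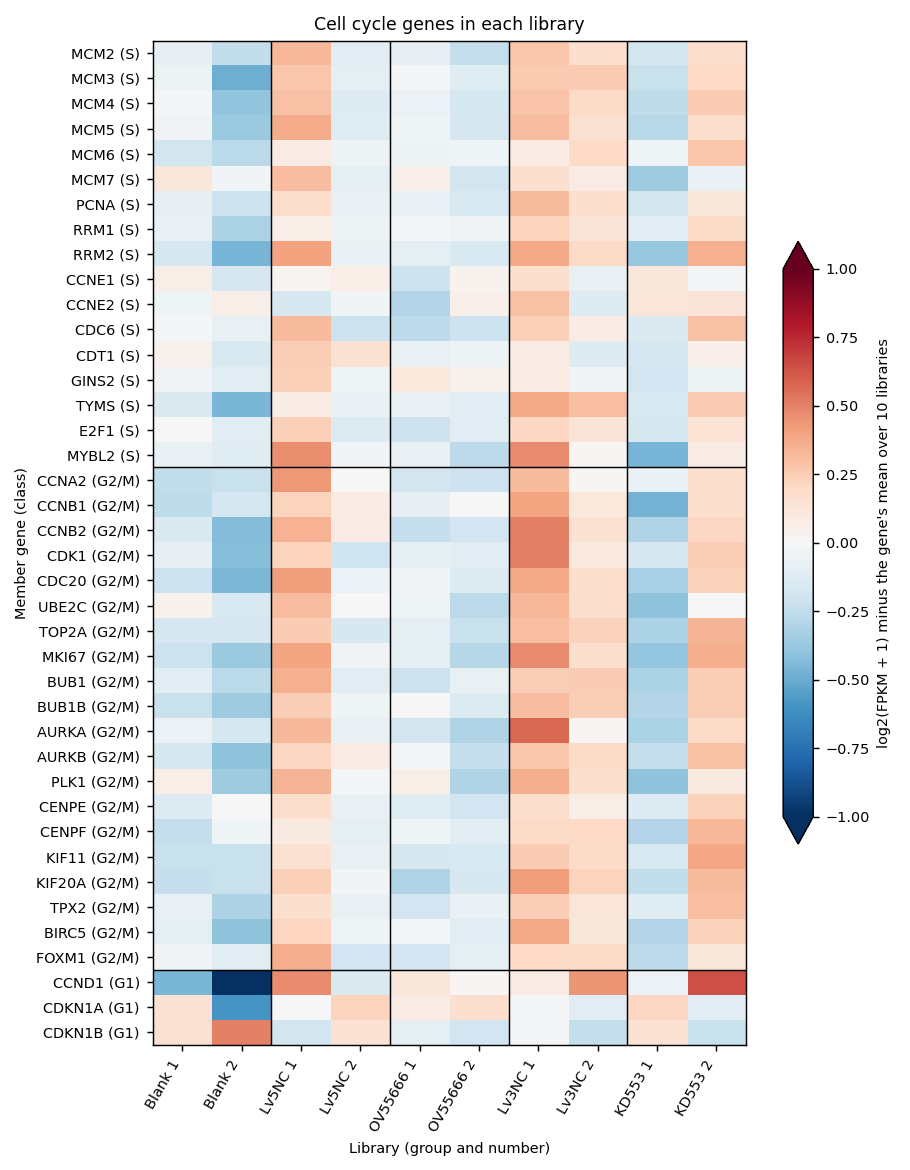
Heat map of the 40 genes (rows, with their class) in the 10 libraries (columns, by group and number), coloured by log2(FPKM + 1) minus the mean of the gene over the 10 libraries. Both Lv3NC libraries, the first Lv5NC library and the second KD553 library carry most of the positive values of the S and G2/M rows, and the second Blank and the first KD553 library most of the lowest ones.

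The libraries ranked much alike for both classes. Among the 20 G2/M members the highest library was the first of Lv3NC for 10, the second of KD553 for 6 and the first of Lv5NC for 4. Among the 17 S members it was the first of Lv5NC for 10, the first of Lv3NC for 6 and the second of KD553 for 1. The lowest library of the G2/M members was the first of KD553 for 9, the second of Blank for 7, the first of Blank for 2 and either OV55666 library for 1 each. For the S members it was the second of Blank for 9, the first of KD553 for 4 and the first of OV55666 for 4. By group mean, Lv3NC was highest for 19 of the 20 G2/M members and 13 of the 17 S members, and Blank was lowest for 14 and 9 of them.

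A summary level was taken for each library as the median, over the members of a class, of log2(FPKM + 1) minus the mean of the gene over the 10 libraries. For the G2/M members this level was −0.16 and −0.25 in Blank, 0.25 and −0.05 in Lv5NC, −0.09 and −0.16 in OV55666, 0.32 and 0.16 in Lv3NC, and −0.29 and 0.24 in KD553. For the S members it was −0.05 and −0.23 in Blank, 0.26 and −0.08 in Lv5NC, −0.07 and −0.13 in OV55666, 0.27 and 0.14 in Lv3NC, and −0.17 and 0.17 in KD553. The libraries of KD553 lay far apart, over nearly the full range for the G2/M level and over most of it for the S level, so a KD553 mean lies between 2 unlike libraries. The SD between libraries of a group was 0.2 for the G2/M level and 0.17 for the S level. In bulk RNA, fewer cycling cells and less of each transcript per cycling cell cannot be told apart. The median deviation of the 12 tested fibroblast markers was 0.14 and 0.13 in Blank, −0.06 and −0.01 in Lv5NC, 0.06 and −0.02 in OV55666, −0.14 and −0.08 in Lv3NC, and 0.11 and 0.02 in KD553. It was thus lowest in the 2 Lv3NC libraries and above 0 in Blank and KD553, and its part in the cell cycle levels was not tested.

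**Figure D2:**
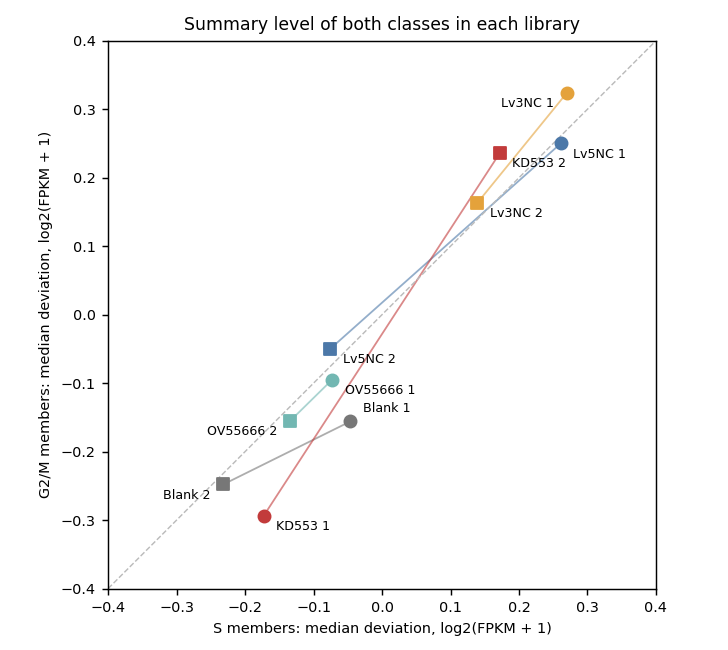
Summary level of the S members (horizontal axis) and of the G2/M members (vertical axis) in each library, as the median deviation of log2(FPKM + 1), with a dashed line of equal values. The 10 libraries lie near the line, from the first KD553 and the second Blank library at the lower left to the first Lv3NC library at the upper right.

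Replication and mitosis genes kept nearly the same balance in the libraries. The summed FPKM of the 20 G2/M members divided by that of the 17 S members was 0.62 and 0.65 in Blank, 0.69 and 0.68 in Lv5NC, 0.63 and 0.64 in OV55666, 0.71 and 0.66 in Lv3NC, and 0.61 and 0.7 in KD553. The G2/M level minus the S level was lowest in the first KD553 library (−0.12) and the first Blank library (−0.11), and highest in the second KD553 library (0.06). By this difference of levels the libraries of KD553 lay at both ends of the range. By the ratio of sums the first KD553 library was lowest, and the first Lv3NC library was highest.

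For the G2/M members the difference between the libraries of a group was largest in KD553. All 20 G2/M members and 15 of 16 tested S members were higher in its second library, against 48.4% of all genes tested. The second library exceeded the first by a median ratio of FPKM of 1.55 for the G2/M members and 1.32 for the S members, and the median log2 difference of the second from the first, with the sign of first minus second, was −0.52 and −0.34, against 0.01 over all genes. The ratio of second to first was 2.03 for CENPF, 1.8 for MKI67, 1.71 for RRM2 and 1.65 for CCNB1. CCNE1 was the S member that was higher in the first library (2.59 against 2.27 FPKM), and CCNE2 was level (2.14 and 2.15 FPKM). A ratio of at least 1.5 between the 2 KD553 libraries was found for 15 of the 20 G2/M members and 3 of the 17 S members, RRM2, CDC6 and MYBL2. Such a ratio was found for 2 G2/M and 2 S members in Lv5NC, 1 and 1 in Lv3NC, and 0 in Blank and OV55666. The share of all genes with such a ratio was not counted. With 1 library on each side these differences have no test.

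In Lv5NC the difference had the other direction by number, and for the S members its median was the largest of the 5 groups. Its first library was higher for all 20 G2/M members and 14 of 16 tested S members, against 56.5% of all genes, with median ratios of 1.31 and 1.32 and median log2 differences of 0.29 and 0.37. In Lv5NC the E cyclins were the 2 S members that were higher in the second library, at 2.39 and 2.47 FPKM for CCNE1 and 1.58 and 1.82 for CCNE2. The first Lv3NC library was higher for 18 G2/M and 15 S members, against 51.5% of all genes, with smaller median ratios of 1.14 and 1.1. The first OV55666 library was higher for 13 G2/M and 10 S members, against 53.3% of all genes, with median ratios of 1.09 and 1.04. In Blank the first library was higher for 13 G2/M and 15 S members, but so were 72.8% of all genes. The S count in Blank thus stands beside a shift of the whole table, and the G2/M count is no higher than that background.

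Wider lists of genes showed the same library differences. In KD553, 69 of 70 tested further genes of mitosis and 53 of 60 further genes of replication were higher in the second library. In Lv5NC, 66 of those 70 and 51 of those 60 were higher in the first. Of 25 tested targets of p53, 14 were higher in the second KD553 library and 10 in the first. Fibroblast markers were higher in the first KD553 library in 9 of 12 cases.

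**Figure D3:**
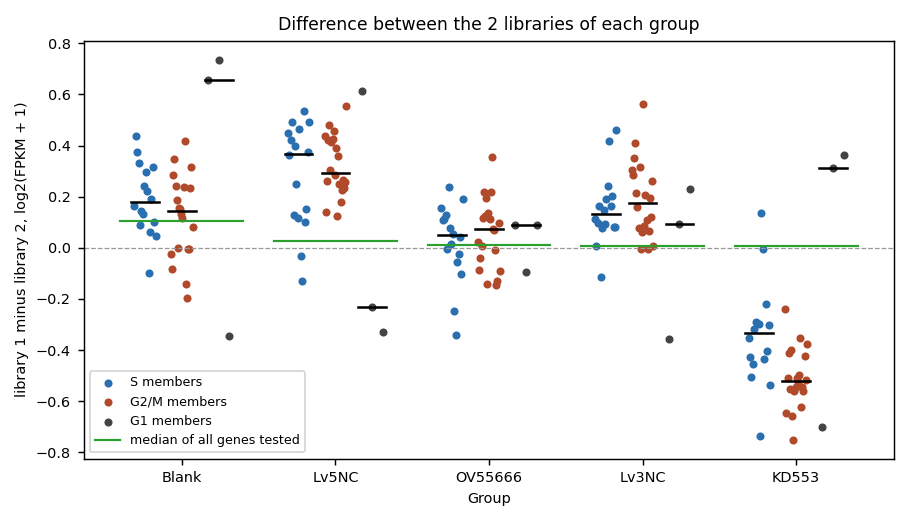
First minus second library of each group on the log2(FPKM + 1) scale, a point for each tested member, coloured by class, with the median of all genes tested. The G2/M points of KD553 are all below 0 and those of Lv5NC all above 0, while those of the other groups lie closer to 0 or on both sides of it.

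With lncRNA55666 overexpression the replication and mitosis genes were at lower mean levels than in the Lv5NC control virus, and none passed the test. All 16 tested S members and all 20 G2/M members had lower fitted means, against 41.3% of all genes. The median log2 change was −0.19 for the S members and −0.25 for the G2/M members, against 0.02 over all genes, and the median ratio of group means in FPKM was 0.86 and 0.79. With limma, 0 of the 39 members had an adjusted p under 0.05, and their adjusted p was 1 throughout. That is also the share of all 11340 genes, 0%. At an unadjusted p under 0.05 the members were CCNA2 and CCNB2, against 0.441% of all genes that were lower at that level.

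CCNA2 averaged 4.11 ± 0.06 FPKM (SD, n = 2) in OV55666 and 5.85 ± 1.46 in Lv5NC, a log2 change of −0.41 ± 0.15 (SE; limma, unadjusted p = 0.0267, adjusted p = 1). For CCNB2 the log2 change was −0.43 ± 0.19 (SE) and for KIF20A −0.33 ± 0.17. Among the S members CDT1 stood at −0.26 ± 0.12, MYBL2 at −0.39 ± 0.23 and MCM2 at −0.27 ± 0.16. UBE2C stood at −0.31 ± 0.15. Both OV55666 libraries lay below both Lv5NC libraries for 3 S members (RRM2, CDT1 and MYBL2) and 10 G2/M members, against 9.07% of all genes. The 10 were CCNA2, CCNB1, CCNB2, UBE2C, MKI67, AURKA, AURKB, CENPE, KIF11 and KIF20A.

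These lower means depended on a single control library, the first of Lv5NC. When it was left out, the median change was −0.02 for the S members and −0.08 for the G2/M members, and without the second Lv5NC library −0.36 and −0.44. Against Blank the OV55666 levels were not lower: 9 of 16 S members and 15 of 20 G2/M members were higher, against 52.9% of all genes, with medians of 0.02 and 0.06, and no S or G2/M member passed the limma test or had an unadjusted p under 0.05, where 0.379% of all genes passed. The 95% interval of a member reached, in the median, 0.35 to either side for the S members and 0.41 for the G2/M members, so changes of the median size could not be told from 0 with these libraries.

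Knockdown of lncRNA55666 also gave lower means of both classes than Lv3NC, the control virus set against it here. All 20 G2/M members and 15 of 16 S members were lower, against 49.1% of all genes. CCNE2 was the exception, at 0.04 ± 0.16 (SE). The median log2 change was −0.23 for the S members and −0.28 for the G2/M members, against 0 (0.00281) over all genes, with median ratios of group means of 0.85 and 0.8. No member passed the limma test, with adjusted p between 0.532 and 0.997, while 0.0705% of all genes did (8 of 11340). The 1 member with an unadjusted p under 0.05 was UBE2C, and 3.59% of all genes were lower at that level.

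UBE2C averaged 11.3 ± 2.38 FPKM (SD, n = 2) in KD553 and 15.6 ± 1.29 in Lv3NC, a log2 change of −0.45 ± 0.15 (SE; limma, unadjusted p = 0.0173, adjusted p = 0.532). CCNB1 stood at −0.40 ± 0.19 and CCNB2 at −0.38 ± 0.19. The S members with the smallest p were PCNA at −0.27 ± 0.12, MCM7 at −0.33 ± 0.15 and TYMS at −0.29 ± 0.14. Both KD553 libraries were below both Lv3NC libraries for 4 S members (MCM3, MCM7, PCNA and TYMS) and 4 G2/M members (UBE2C, BUB1, PLK1 and FOXM1), against 18.3% of all genes. Those shares, 4 of 16 and 4 of 20, are near that background.

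The size of these lower means came largely from the first KD553 library. Without it the median change was −0.04 for the S members and −0.01 for the G2/M members, and without the second KD553 library −0.41 and −0.57. Without the first Lv3NC library the G2/M median was −0.18. Set against Blank, 13 of 16 S members and 17 of 20 G2/M members were higher in KD553, beside 53.8% of all genes, with medians of 0.14 and 0.23. No member passed the limma test there, although 2.52% of all genes did, and of the S and G2/M members MCM6 and TYMS had an unadjusted p under 0.05. Against the other control virus, Lv5NC, 11 of 16 S members and 15 of 20 G2/M members were lower, beside 42.8% of all genes, with medians of −0.08 and −0.14. With limma no member passed in that comparison either and 0.0176% of all genes did, and among the S and G2/M members UBE2C alone had an unadjusted p under 0.05.

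No difference between the effects of the 2 manipulations on these genes was detected. The overexpression effect minus the knockdown effect had a median of 0.02 over the S members and 0.03 over the G2/M members, beside 0.02 over all genes, and was above 0 for 9 of 16 and 11 of 20 members and for 55.3% of all genes. With limma 0% of all genes and none of the members were called, and the smallest unadjusted p of a member was 0.202, for CDT1. The 95% interval of this difference reached, in the median member, 0.49 to either side for the S members and 0.59 for the G2/M members. When each library was left out in turn, the G2/M median ran from −0.27 to 0.32.

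**Figure D4:**
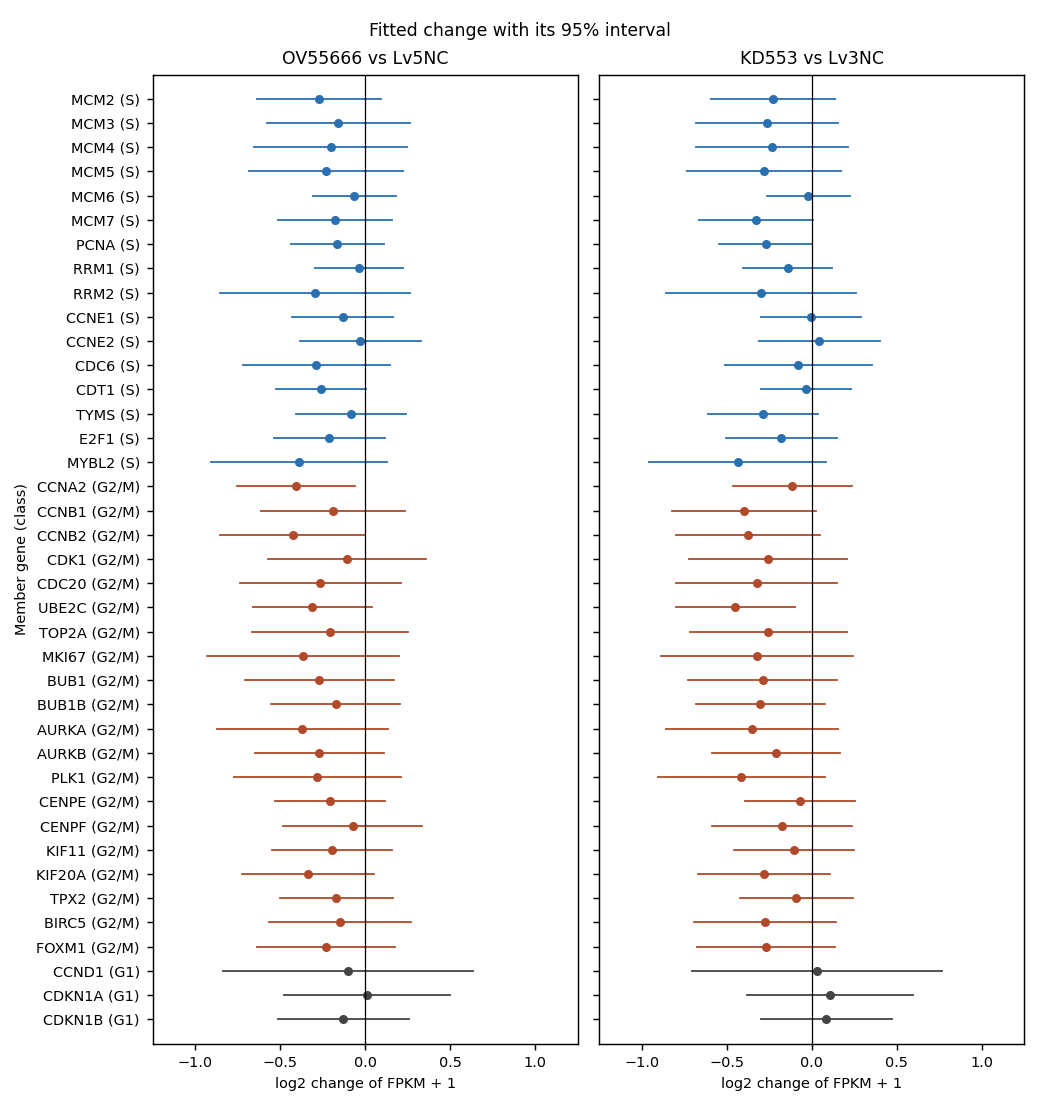
Fitted log2 change of FPKM + 1 (point) with its 95% interval (bar) for the 39 tested members (rows, with their class). The panels show OV55666 against Lv5NC and KD553 against Lv3NC. In both panels nearly all S and G2/M points are left of 0, and most of the intervals include 0.

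Cells with a control virus had higher means of replication and mitosis genes than Blank cells. In Lv3NC all 16 S members and all 20 G2/M members were higher, against 53.7% of all genes, with medians of 0.37 and 0.45 and median ratios of group means of 1.32 and 1.46. None passed the limma test, with adjusted p from 0.117 to 0.928, where 0.132% of all genes did. An unadjusted p under 0.05 was found for 7 S and 13 G2/M members, all of them higher, against 7.50% of all genes. Both Lv3NC libraries lay above both Blank libraries for 12 S members and all 20 G2/M members, against 24.3% of all genes. The 4 tested S members with overlapping libraries were MCM7, CCNE1, CCNE2 and CDT1.

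TYMS had the smallest p, with 37.1 ± 1.53 FPKM (SD, n = 2) in Lv3NC and 23.6 ± 3.8 in Blank, a log2 change of 0.64 ± 0.14 (SE; limma, unadjusted p = 0.00146, adjusted p = 0.117). Without the first Blank library the TYMS change was 0.80 and TYMS was called. That fit left a single Blank library and called more genes over the whole table too, so the call does not set TYMS apart. With all libraries, MCM6 stood at 0.37 ± 0.11 (SE), BUB1B at 0.56 ± 0.17 and CCNB2 at 0.62 ± 0.19. Without the second Blank library the medians were 0.26 for the S members and 0.41 for the G2/M members.

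In Lv5NC, 15 of 16 S members and all 20 G2/M members were higher than in Blank, against 47.9% of all genes, with medians of 0.25 and 0.31. Without the first Lv5NC library these medians were 0.08 and 0.14, and without the second Blank library the S median was 0.14. None passed the limma test, where 0.291% of all genes did. An unadjusted p under 0.05 was reached by MCM6 among the S members and by CCNA2, CCNB2, CDC20, BUB1B and AURKB among the G2/M members, against 5.09% of all genes that were higher at that level. CCNA2 stood at 0.45 ± 0.15 (SE; adjusted p = 0.258 with limma) and CDT1 at 0.25 ± 0.12. Both Lv5NC libraries were above both Blank libraries for 7 S and 12 G2/M members, against 15.5% of all genes. Each of these comparisons shares its control virus libraries with a manipulation or its Blank libraries with the other virus, so their values are not independent of each other.

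The G1 genes differed among themselves. CCND1, which encodes cyclin D1, was at 17.54 and 10.77 FPKM in Blank, 34.25 and 22.01 in Lv5NC, 26.41 and 24.75 in OV55666, 25.88 and 33.45 in Lv3NC, and 23.38 and 38.65 in KD553. The 8 libraries with a virus were all above both Blank libraries, and the virus groups overlapped. Of all 11340 genes tested, 1762 had both Lv5NC libraries above both Blank libraries. The counts were 2218 in OV55666, 2750 in Lv3NC and 2575 in KD553, and genes above in all 8 libraries were not counted. Like most S and G2/M members, CCND1 was higher in the first Lv5NC and the second KD553 library. In Lv3NC its second library was the higher. Against Blank its log2 change was 0.95 ± 0.31 (SE) in Lv5NC, 0.85 ± 0.31 in OV55666, 1.04 ± 0.31 in Lv3NC and 1.07 ± 0.31 in KD553, with limma adjusted p of 0.264, 0.357, 0.217 and 0.135. Between manipulation and control virus it was −0.10 ± 0.31 for the overexpression and 0.03 ± 0.31 for the knockdown.

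CDKN1B, which encodes p27, was low, at 3.35 and 4.53 FPKM in Blank, 2.45 and 3.33 in Lv5NC, 2.65 and 2.43 in OV55666, 2.88 and 2.31 in Lv3NC, and 3.31 and 2.35 in KD553. Every library with a virus was below both Blank libraries, in Lv5NC and KD553 by a narrow margin for 1 library each. The log2 change ran from −0.34 in Lv5NC to −0.47 in OV55666. Of all 11340 genes tested, 2702 had both Lv5NC libraries below both Blank libraries. The counts were 2256 in OV55666, 2485 in Lv3NC and 2313 in KD553. Between manipulation and control virus its change was within the error, at −0.13 ± 0.17 (SE) and 0.08 ± 0.17. CDKN1A, which encodes p21 and is a target of p53, was by far the most abundant of the 40 genes. It was at 145.78 and 87.14 FPKM in Blank, 131.37 and 154.38 in Lv5NC, 138.91 and 148.27 in OV55666, 130.99 and 122.74 in Lv3NC, and 152.46 and 122.65 in KD553. The second Blank library was the lowest and the other 9 lay between 122.65 and 154.38 FPKM, with changes of 0.01 ± 0.21 (SE) for the overexpression and 0.11 ± 0.21 for the knockdown.

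**Figure D5:**
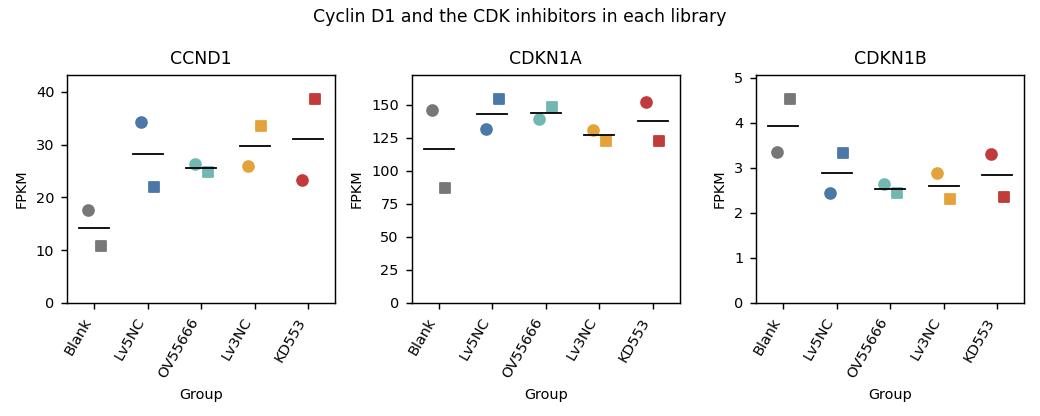
FPKM of CCND1, CDKN1A and CDKN1B (panels) in each library, by group, with a bar at the mean of the group and axes that start at 0. CCND1 is above both Blank libraries in all 8 libraries with a virus, CDKN1B is below both, and CDKN1A overlaps apart from a single low Blank library.

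Lists of further cell cycle genes were set beside the members. These lists too were chosen with earlier results of these data known, so they are not independent support. In OV55666 against Lv5NC all 70 tested further genes of mitosis were lower (median −0.18) and 41 of 60 further genes of replication (median −0.08), with 0 called by limma in either and an unadjusted p under 0.05 in 3 and 1 of them, against 0% and 0.441% of all genes. DEPDC1 of the mitosis list passed the filter on low values only through Lv5NC, so it had to be lower in OV55666. GINS3 of the replication list reached 1 FPKM only in the first Lv5NC (1.09) and the first Lv3NC library (1.16). Without either control virus it would not have been tested. In KD553 against Lv3NC 66 of 70 (median −0.19) and 47 of 60 (median −0.07) were lower, again with 0 called by limma and with 6 and 4 under an unadjusted p of 0.05, all of them lower, against 0.0705% and 3.59% of all genes. GINS3 and MCM8 of the replication list, and E2F8 and LIN9 of the G1 regulators, would not have passed the filter without Lv3NC. MCM8 reached 1 FPKM in no other group. E2F8 reached it also in the second KD553 library (1.22), and LIN9 also in the first Lv5NC library (1.13). Of 32 other G1 regulators 19 were lower in OV55666 and 16 in KD553, and of 25 tested p53 targets 9 and 8 were. These 2 lists thus stood nearer to the shares of all genes given above than the mitosis genes did.

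The smallest unadjusted p of these lists in OV55666 belonged, apart from DEPDC1, to ZWINT, a kinetochore protein, at 1.74 and 2.48 FPKM against 3.34 and 2.67 in Lv5NC (log2 −0.37 ± 0.15, SE), to the replication ligase LIG1 (−0.32 ± 0.12) and to the polymerase delta subunit POLD1 (−0.30 ± 0.14). In KD553 they belonged to UBE2S, which extends the ubiquitin chains begun by UBE2C, at 22.26 and 24.6 FPKM against 34.28 and 28.52 in Lv3NC (log2 −0.40 ± 0.11, SE; limma adjusted p = 0.397), to CKS1B, a partner of the CDKs (−0.38 ± 0.12), to the helicase BLM (−0.33 ± 0.12) and to the origin recognition subunit ORC5 (−0.29 ± 0.11). UBE2S, CKS1B, BLM and ORC5 all had both KD553 libraries below both Lv3NC libraries, as UBE2C had, and as 18.3% of all genes had. They were picked for a small p, so this does not set them apart. Among G1 regulators CCNH (−0.19 ± 0.09) and LIN9 (−0.17 ± 0.11) had the smallest p in OV55666, and, apart from LIN9, E2F6 (0.28 ± 0.09) did in KD553. Among p53 targets they were CCNG1 (0.21 ± 0.10) and FAS (0.21 ± 0.11) in OV55666, and BTG2 (0.32 ± 0.14) and BBC3 (−0.27 ± 0.13) in KD553.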

How the data were processed

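The authors deposited FPKM values per gene for the 10 libraries, per the file headers, and the values have 2 decimals. The sources used here name no aligner, counting tool or genome build. FPKM do not give the read depth: of 28 genes with few reads examined for steps of whole reads, 12 had such steps, too few to recover counts. Gene identifiers were matched to symbols through the RefSeq table of the ARS1.2 assembly. From the FPKM, log2(FPKM + 1) was computed (pseudocount 1) for the 11340 genes with at least 1 FPKM in at least 2 libraries. Fold changes on this scale understate those of low genes. limma 3.58.1 in R 4.3.3 was fitted to all 10 libraries with a mean per group and trended, robust variances. p-values were adjusted by Benjamini-Hochberg over the whole table, with 0.05 as the threshold of a call. Overexpression was set against 5NC and knockdown against 3NC, a pairing inferred from the order of the series text. Tables and plots used python 3.11.15 with pandas 2.3.3, numpy 2.4.6 and matplotlib 3.10.9.

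The members and the gene lists were chosen with earlier results of these data known. Values in every library are given for the G1 members, for the 3 S and the 3 G2/M members with the highest mean, for the 3 with the smallest unadjusted p in each manipulation and for the 2 with the smallest in each control virus against Blank. Of each further list the 2 genes with the smallest p in each manipulation are named where none was called. No change is given for those that would not have passed the filter without the higher group. Promoter motifs are not analysed here. The fit was also run on simulated data with independent noise for each gene, and its outcome is not used here. Genes that move together were not simulated. Alternatives were another pseudocount, filter and normalization, a fit without trend, other controls, replicate blocks and leaving out each library.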

Additional observations from a re-analysis of the deposited data

How the results depend on the processing

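No member was called under the alternatives tried (pseudocount, filter, normalization, fit without trend, only the groups compared, other controls, replicate blocks, leaving out a library), except TYMS in Lv3NC against Blank without the first Blank library. That fit left a single Blank library, and more genes over the whole table were called in it too. The medians of both classes kept their direction in the 4 comparisons of groups, except with Blank as control: then they were 0.0221 (S) and 0.0623 (G2/M) for OV55666, and 0.136 and 0.228 for KD553. Leaving out a library moved the S median from −0.357 to −0.0211 in OV55666 against Lv5NC, from −0.413 to −0.0406 in KD553 against Lv3NC, from 0.0808 to 0.347 in Lv5NC and from 0.259 to 0.433 in Lv3NC against Blank, and from −0.178 to 0.256 for the difference between manipulations. The G2/M median moved from −0.438 to −0.0816, −0.565 to −0.013, 0.137 to 0.461, 0.354 to 0.561 and −0.265 to 0.318 in the same order, and the members called in Lv3NC against Blank from 0 to 1. The causes were not tested.

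Leaving out a library also changed the sign of some single changes, none of them called. In KD553 the ranges were −0.179 to 0.139 for MCM6, −0.67 to 0.0666 for RRM2, −0.142 to 0.0766 for CDT1, −0.266 to 0.0372 for CCNA2, −0.56 to 0.000923 for KIF20A, −0.32 to 0.382 for CCND1, −0.0476 to 0.264 for CDKN1A and −0.0973 to 0.266 for CDKN1B. In OV55666 they were −0.377 to 0.0233 for MCM7, −0.408 to 0.207 for CCND1, −0.105 to 0.127 for CDKN1A (−0.011 with libraries shifted to the same median) and −0.291 to 0.0365 for CDKN1B. Against Blank they were −0.134 to 0.266 for MCM7 and −0.0335 to 0.702 for CDKN1A in Lv5NC, and −0.0714 to 0.131 for CDT1 and −0.2 to 0.536 for CDKN1A in Lv3NC.

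The library numbers of the groups showed no uniform pairing. Deviations of the first libraries correlated across genes between −0.622 (Lv5NC and KD553) and 0.503 (Lv5NC and OV55666), with mixed signs. Such correlations cannot exclude a pairing of the samples, and the KD553 numbers are only those of the data columns. A replicate block, with the KD553 numbers either way, left 0 members called and the G2/M medians at −0.248 and −0.278. FPKM keep no depth, so the precision of low members such as GINS2, CDC6 and CENPE is unknown, and 2 libraries a group limit the tests.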
